A study of Caenorhabditis elegans with 2 samples.

Results

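Binding of MLS-2, an HMX-type homeodomain transcription factor, at the Hox genes of Caenorhabditis elegans and at the genes of their cofactors was read from ChIP-seq (chromatin immunoprecipitation followed by sequencing) peak lists. The genes were taken from a list chosen with earlier results of these data known. It held 6 Hox genes (ceh-13, lin-39, mab-5, egl-5, nob-1 and php-3). The other 4 genes encode the PBC and MEIS cofactors of Hox proteins (ceh-20, ceh-40, ceh-60 and unc-62). All 10 were found among 19973 protein-coding genes. The material was whole mixed-stage embryos, male and female pooled, 2 h after synchronization by bleaching. Strain OP645 was used, with the allele unc-119(tm4063) III and the insertion wgIs645, from which MLS-2 is made with GFP-FLAG fused to its C terminus, and chromatin was precipitated with anti-GFP. Both biological replicates belong to 1 group, so no conditions can be compared, and a control library was not analysed here. Chromatin of whole embryos mixes all cell types, so the cells in which a region was bound cannot be told.

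Hox genes encode homeodomain proteins that give cells along the body axis their regional identity, and in the worm they act in cell migration, cell fate and tail formation. PBC proteins (relatives of fly Extradenticle and vertebrate Pbx) and MEIS proteins (relatives of fly Homothorax and vertebrate Meis) bind DNA together with Hox proteins. CEH-20 is known to be needed for the expression of mls-2 itself in the postembryonic mesoderm lineage, so the questions here concern the other direction, MLS-2 at Hox and cofactor genes.

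A region was given to a gene when its summit, the position of highest signal, was in the gene body or at most 5 kb from a 5′ end of its protein-coding transcripts. The authors' optimal list (named for a threshold on reproducibility) held 1925 regions. The pooled list and the list of each replicate held 30000 regions each, down to background. Regions were ranked within a list by the authors' signal value, with rank 1 the strongest. The optimal list was the same as the 1925 strongest pooled regions, and its lowest signal was 212. A region in it could thus rank low in 1 replicate. Of its regions, 63.4% had a summit within 100 bp among the 1925 strongest of both replicates. The lists give no read totals, and the sequencing depth is unknown.

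The optimal list placed MLS-2 at 3 of the 10 genes, against 17.0% of all protein-coding genes by the same assignment. They were 1 of 6 Hox genes, ceh-13, and 2 of 4 cofactor genes, ceh-20 and unc-62. The region of ceh-13 lay downstream of the gene, at chrIII:7558534-7559003 (ce11, as are all coordinates here). That of ceh-20, the strongest of the 3, lay upstream of the gene, at chrIII:6978735-6979204, and that of unc-62 lay inside the gene, at chrV:4507837-4508306. The sequence at the best-ranked pooled summit of each gene is shown so that the places can be compared, 201 bases centred on the summit and read along the gene's strand. For lin-39 the window was 181 bases, to keep clear of an annotated untranslated region (UTR). For unc-62 the summit lay in an annotated 5′ UTR, of which no long stretch is shown. In place of its window, 28 bases of annotated 5′ UTR were chosen for their match to a motif, so they are not centred on the summit and cannot be compared with the other windows. The best summit of nob-1 is also that of php-3, and ceh-40 and ceh-60 had no pooled region. Capitals mark every match, on either strand, to 6 motifs: CAATTAA (the HMX family), TAATTA (a homeodomain core), TGATNNAT (a PBC and Hox composite), TGACAG (MEIS), GAGAGA and GGGCGG. The sequences are from the RefSeq WBcel235 genome.
ceh-13, chrIII:7558669-7558869, plus strand: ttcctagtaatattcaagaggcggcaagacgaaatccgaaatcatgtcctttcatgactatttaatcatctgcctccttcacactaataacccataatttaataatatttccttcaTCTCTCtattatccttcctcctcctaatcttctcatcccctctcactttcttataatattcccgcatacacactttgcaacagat
lin-39, chrIII:7534518-7534698, minus strand: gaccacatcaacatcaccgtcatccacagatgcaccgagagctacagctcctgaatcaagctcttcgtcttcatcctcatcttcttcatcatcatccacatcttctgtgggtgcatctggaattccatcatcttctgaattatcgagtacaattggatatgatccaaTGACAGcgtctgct
mab-5, chrIII:7784387-7784587, minus strand: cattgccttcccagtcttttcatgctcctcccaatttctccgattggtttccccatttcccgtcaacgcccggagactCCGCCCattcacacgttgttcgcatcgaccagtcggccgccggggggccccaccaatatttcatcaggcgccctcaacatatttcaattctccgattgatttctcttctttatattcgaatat
egl-5, chrIII:7812485-7812685, plus strand: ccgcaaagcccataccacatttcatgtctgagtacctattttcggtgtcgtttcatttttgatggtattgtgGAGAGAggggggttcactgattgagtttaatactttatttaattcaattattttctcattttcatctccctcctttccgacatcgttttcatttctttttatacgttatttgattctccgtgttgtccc
nob-1, chrIII:12079732-12079932, minus strand: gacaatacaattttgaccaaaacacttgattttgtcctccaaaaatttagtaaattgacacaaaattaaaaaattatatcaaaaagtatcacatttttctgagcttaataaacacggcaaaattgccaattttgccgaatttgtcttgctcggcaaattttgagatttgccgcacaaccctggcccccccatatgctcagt
ceh-20, chrIII:6978870-6979070, plus strand: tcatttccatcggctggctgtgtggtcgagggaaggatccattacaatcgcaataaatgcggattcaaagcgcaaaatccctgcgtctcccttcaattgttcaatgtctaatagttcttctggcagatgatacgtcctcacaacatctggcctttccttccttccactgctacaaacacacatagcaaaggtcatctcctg
unc-62, chrV:4507994-4508021, plus strand: gccttggcaaTGATGGATcgccgcagct

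None of these windows held CAATTAA. The window at ceh-13 held 1 match to GAGAGA, on the opposite strand as TCTCTC, and that at egl-5 held 1 on its own strand. GAGAGA was found at 40.9% of all optimal summits and 18.4% of all pooled summits. Of all protein-coding promoters over the same length (201 bases before the 5′ end), 16.4% held it. The windows at nob-1 and ceh-20 held no match to any of the 6 motifs. At lin-39 there was 1 match to TGACAG, which 5.99% of all pooled summits hold in 201-base windows. At mab-5 there was 1 match to GGGCGG, found at 14.9% of all optimal summits, 8.03% of all pooled summits and in 6.01% of promoters. The summits shown for lin-39, mab-5, egl-5 and nob-1 are pooled and not optimal summits. The whole 201-base window at the unc-62 optimal summit held 1 match to TGATNNAT, printed above, and 2 to GAGAGA. TGATNNAT was found at 6.65% of all optimal summits and in 16.2% of promoters. These are matches of letters and not measured binding sites.

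ceh-13, the anterior Hox gene related to labial, was the Hox gene with an optimal region, and it had that region near the end of the list. The summit lay 3109 bp downstream of the 5′ end and 728 bp past the end of the gene, with a signal of 219 and rank 1815 of 1925. The replicates placed the summit 4 bp apart, at 7558769 and 7558773, and ranked it very differently, 5635 in replicate 1 and 559 in replicate 2. That ratio of 10.1 between ranks was reached or passed (10 or more) by 17 of the 1810 optimal regions matched in both replicates (0.939%), and the median ratio was 1.55. In replicate 1 another region of ceh-13 ranked higher, at 7556879 in an intron, with rank 5007. The optimal summit was also within 5 kb of lgc-12, 3403 bp upstream of its 5′ end, and ceh-13 was the nearer gene. With windows of 1 kb or 2 kb, or among the 1925 strongest regions of replicate 1, 0 Hox genes had a region.

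The 5 other pooled regions of ceh-13 ranked from 4618 to 29938. They included a summit at -2283 bp from the 5′ end, with a signal of 138, and one 836 bp upstream, with a signal of 125. The window of the summit at 836 bp held 2 matches to GGGCGG, 3 to GAGAGA (some overlapping, each counted) and 1 to TGATNNAT. Replicate 1 ranked it 7934 and replicate 2 ranked it 26308.

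lin-39, which acts in the mid-body and in vulval precursor cells, had 3 pooled regions over 13.0 kb. The best was in a coding exon, 197 bp downstream of the internal 5′ end, with a signal of 174 and rank 3101. It ranked 5401 in replicate 1 and 2526 in replicate 2. A second summit lay 8 bp upstream of the same 5′ end, with rank 7380. Both summits are close to the start of the shorter annotated transcript, and no region lay within 1 kb of the longer transcript's 5′ end in the pooled list. Each replicate list held a low-ranked summit there, 117 bp upstream with rank 20389 in replicate 1 and 331 bp upstream with rank 23409 in replicate 2. The nearest optimal summit was 13962 bp away.

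mab-5, which steers the migration of the left Q neuroblast's descendants, also had 3 pooled regions. The best lay 1033 bp upstream of the 5′ end, with a signal of 155 and rank 4129, and it ranked 3982 in replicate 1 and 7717 in replicate 2. egl-5, the Abdominal-B relative that acts in the tail, had 5. Its best lay 1789 bp upstream, with a signal of 150 and rank 4391, and the matched summits ranked 5940 in replicate 1 and 8376 in replicate 2. In replicate 2 the best summit of egl-5 stood at 7812420, 1954 bp upstream, with rank 2966. Neither gene had an optimal summit within 40 kb of a 5′ end, the nearest being 53.8 kb from mab-5 and 40.3 kb from egl-5.

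nob-1 and php-3 are adjacent posterior Hox genes that act redundantly in embryonic patterning, and they shared 7 regions, so their values are not independent. nob-1 had 11 pooled regions over 14.9 kb, and 3.31% of all genes had as many. php-3 had 7 over 10.0 kb, all of them among the 11. The best lay in an intron of nob-1, 397 bp upstream of its internal 5′ end, with a signal of 166 and rank 3445, and ranked 4167 in replicate 1 and 5417 in replicate 2. The next, also intronic, had a signal of 163 and rank 3644, with 11508 in replicate 1 and 1612 in replicate 2. It is the region through which both genes enter the strongest 1925 of replicate 2. Another lay in an intron of php-3, 868 bp downstream of its 5′ end, with a signal of 161 and rank 3753, and replicate 2 ranked it 2954. Replicate 1 had no summit within 100 bp of it, but its nearest one, at 12076842, ranked 3881 and was the best replicate 1 region of both genes. One more lay 797 bp upstream of the longer nob-1 transcript, with a signal of 147 and rank 4637. The window of that summit held 4 matches to GGGCGG (some overlapping, each counted).

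ceh-20 encodes the Extradenticle-like PBC protein that partners several worm Hox proteins. Its summit lay 914 bp upstream of the 5′ end, in intergenic sequence, with a signal of 305 and rank 856 in the pooled list. The region ranked 969 in replicate 1 and 868 in replicate 2, with summits at 6978975 and 6978970, 5 bp apart. Both replicates thus held it within the 1925 strongest regions of their own lists. Of all genes, 8.73% had a pooled region ranked as high. The summit also lay within the assignment distance of F31E3.2 (4627 bp downstream of its 5′ end) and F31E3.6 (3111 bp upstream), and the 5′ end of ceh-20 was the nearest. The other 4 pooled regions of ceh-20 were weak, with a best rank of 13460.

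unc-62 encodes a MEIS protein, which binds DNA in complexes with PBC proteins. Its optimal summit lay 868 bp downstream of an internal 5′ end, with a signal of 282 and rank 1026. It was in the 5′ UTR of at least 1 annotated transcript and in an intron of at least 1 other. The region ranked 1156 in replicate 1 and 806 in replicate 2. T28F12.1, whose 5′ end lay 4961 bp away, was also within the assignment distance. The pooled list held 18 regions over the 19.7 kb assigned to unc-62, and 0.566% of all genes had as many. The gene has 15 distinct annotated 5′ ends, which widen its window. Counted per length, unc-62 had 0.912 pooled summits per kb, against 0.302 per kb over all protein-coding windows. The share of genes with as many per kb was not computed.

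The other strong regions of unc-62 fell short of the optimal list. Those ranked 2263, 2494, 2543 and 3613 lay 60 bp downstream of, 47 bp upstream of, 2075 bp upstream of and 1016 bp downstream of a 5′ end of the gene. Of the 18, replicate 1 held 16 within 100 bp and replicate 2 held 12, and both held 10. In replicate 2 the region at 4499244 ranked 1640, and the nearest pooled summit, at 4499390, had no replicate 2 summit within 100 bp. Intergenic summits numbered 5, intronic summits 6, and 7 lay in an exon of some transcript. The optimal region nearest to unc-62 outside the assignment distance had its summit 5790 bp from a 5′ end, with rank 1262 and a signal of 257. For ceh-20 the same distance was 7773 bp (rank 789, signal 318).

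ceh-40 and ceh-60, which encode the other PBC proteins of the worm, had no region in the pooled list. Both lie on the X chromosome, and their nearest optimal summits were 46.9 kb and 63.5 kb from the 5′ end. ceh-40 overlaps ceh-20 in function, and CEH-60 acts with UNC-62 in the adult intestine. ceh-40 had 1 region in each replicate list, with rank 16748 in replicate 1 and 19098 in replicate 2, at different places (12320963 and 12321803). ceh-60 had none in any of the lists over 12.6 kb. In the pooled list 67.4% of all genes had a region of any rank, so that a gene without one is common.

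**Figure D1:**
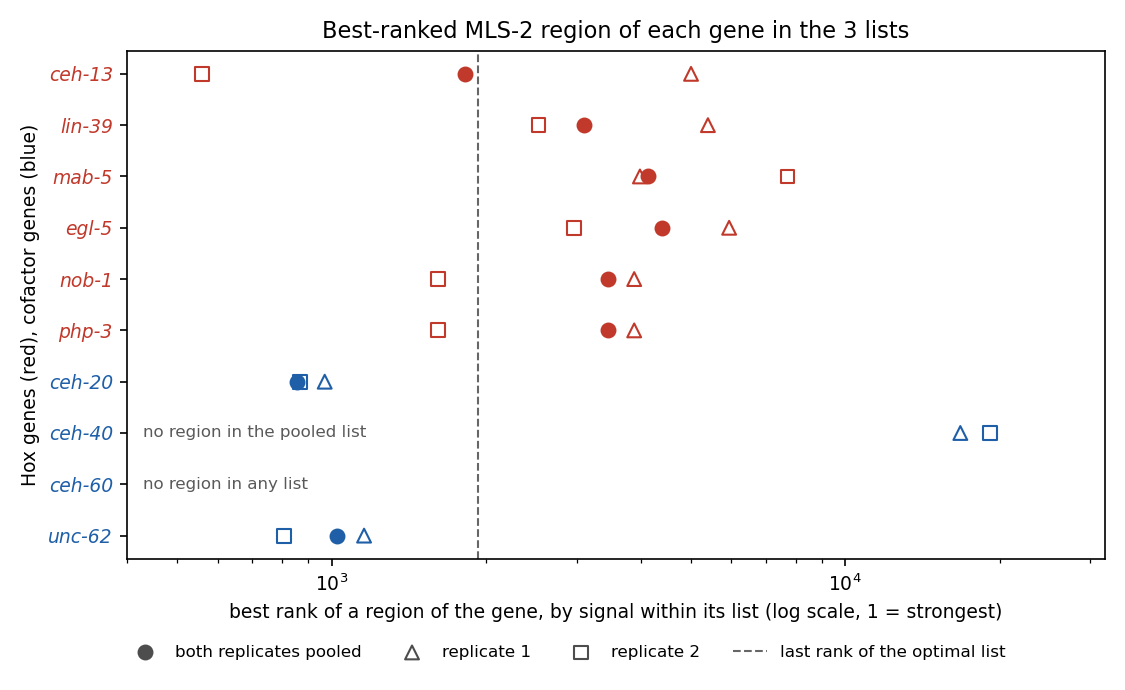
Best rank of each gene in the pooled list (filled circles), replicate 1 (triangles) and replicate 2 (squares), on a log axis on which rank 1 is the strongest region. The marks of ceh-13 run from 559 to 5007, whereas those of ceh-20 and unc-62 lie between 806 and 1156, left of the dashed line at rank 1925.

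**Figure D2:**
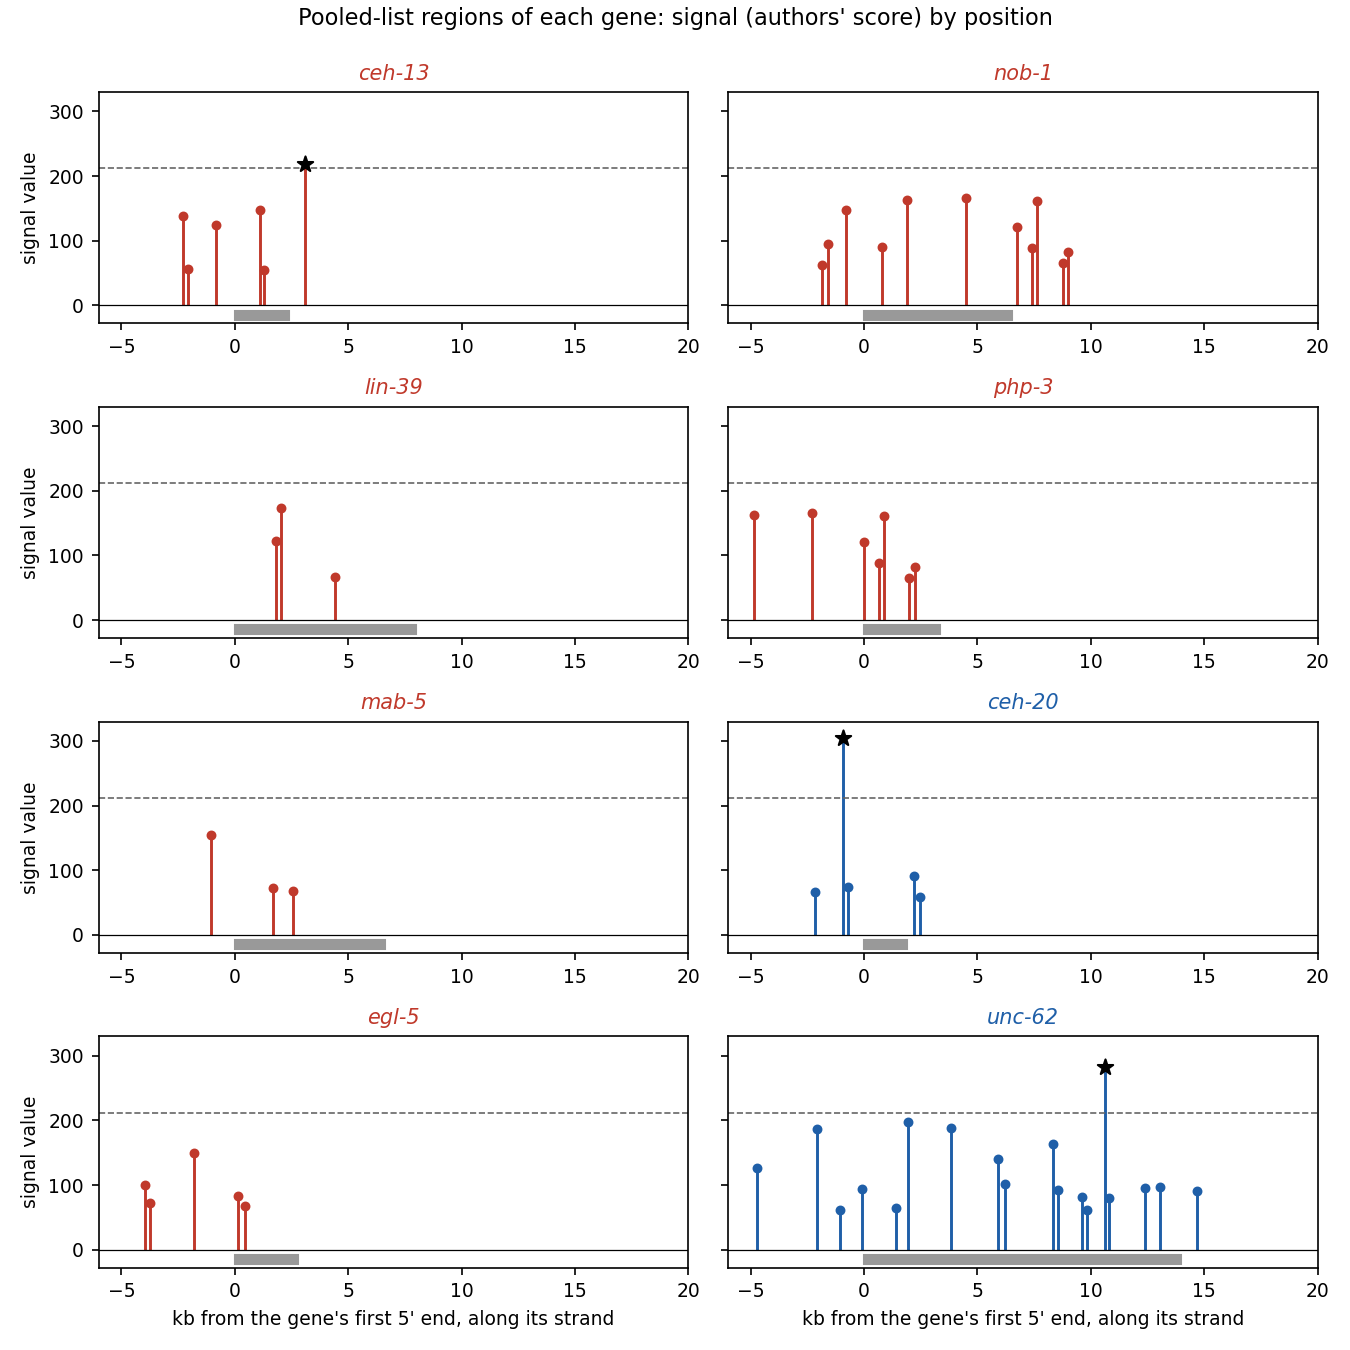
Signal value (the authors' score) of every pooled region of the 8 genes that had one, by the distance of its summit in kb from the gene's upstream-most 5′ end. Grey bars are gene bodies, stars are optimal regions, and the dashed line is the lowest optimal signal, 212. nob-1 and php-3 share 7 regions, and unc-62 has 18 across its assigned window, 5 of them intergenic.

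Some regions of Hox and cofactor genes lay in repeats, by a measure chosen after the sequences were seen. At least 50% of the window was soft-masked as repeat in the RefSeq genome at 4 of 28 pooled Hox summits (14.3%). All 4 were summits of nob-1, some of them shared with php-3. For cofactors it was 4 of 23 pooled summits (17.4%), and for all optimal summits 8.83%. The Hox and cofactor summits were pooled regions of any rank. No repeat share over all pooled summits was computed, so a difference from the optimal summits cannot be given to these genes. The median masked share was 13.7% at Hox summits and 19.9% at cofactor summits, against 14.4% at all optimal summits. Windows with a 36-base stretch that occurs more than once in the genome numbered 2 at Hox summits (7.14%) and 2 at cofactor summits (8.70%). The share at all optimal summits was 17.4%. In the windows of the nob-1 summits ranked 3445 and 3753, 78.1% and 79.1% of bases were masked. In the second of these, 16.9% of the 36-base stretches occurred more than once in the genome. Among cofactor summits, the unc-62 summit ranked 12277 had 95.0% of its bases masked, and at the ceh-20 summit ranked 27073, with 36.8% masked, 78.3% of the 36-base stretches were repeated. A read lying wholly in a repeated stretch cannot be placed with certainty, and whether that affected these regions was not tested. The optimal summits of ceh-13 (9.45% masked), ceh-20 (0%) and unc-62 (26.9%) had no repeated 36-base stretch, which 17.4% of all optimal summits had. No summit of the 10 genes in the optimal or pooled lists was within 200 bp of a tRNA, snoRNA, snRNA or miRNA gene.

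In the pooled list the best region of every Hox gene ranked below those of ceh-20 and unc-62, while regions per length were similar in number. In replicate 2 that order did not hold, since ceh-13 ranked 559 there, against 868 for ceh-20 and 806 for unc-62. All 6 Hox genes had a pooled region, with best ranks from 1815 to 4391 and a median of 3445. Of the 4 cofactor genes 2 had one, with best ranks of 856 and 1026. Among all protein-coding genes, 67.4% had a pooled region of any rank. The pooled ranges of the 6 Hox genes and these 2 cofactor genes did not overlap, and the other 2 cofactor genes stood below every Hox gene. nob-1 and php-3 share their best region, at rank 3445, so it counts for both genes in the Hox median. Over all 13455 genes with a pooled region the median best rank was 5249. Counted per length with shared regions counted once, there were 28 pooled summits at Hox genes (0.456 per kb over 61.4 kb) and 23 at cofactor genes (0.440 per kb over 52.3 kb). Without unc-62 the cofactor value was 0.154 per kb. All protein-coding windows together had 0.302 per kb. These are descriptions of 2 short lists, and no test was run.

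**Figure D3:**
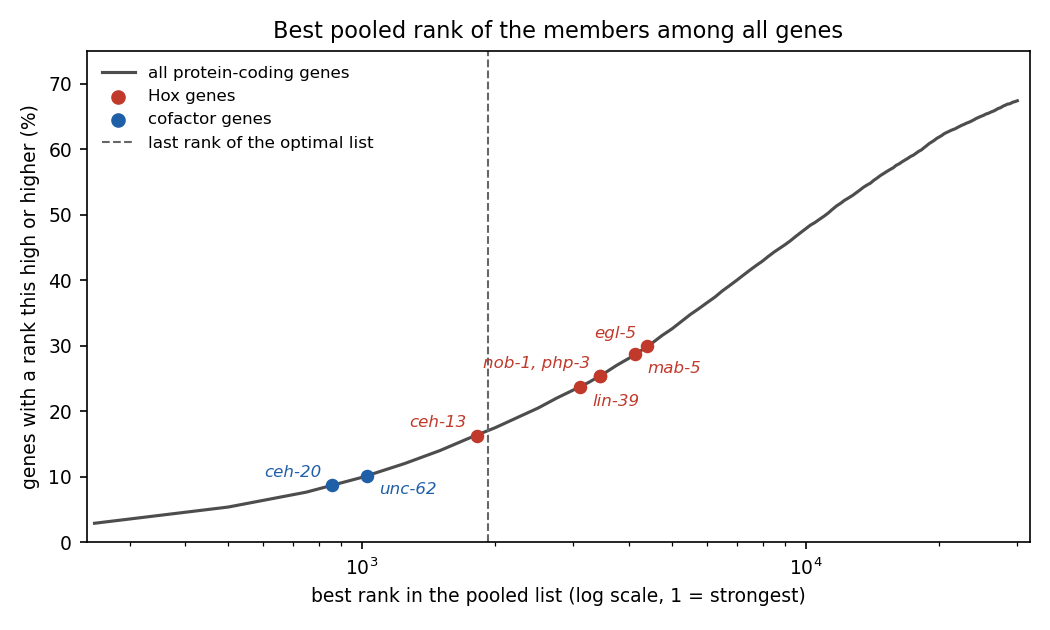
Share of all protein-coding genes (line) whose best pooled rank was as high as the value on the log axis, with the 8 genes that had a region marked on it. ceh-13 stood at 16.3% and the other 5 Hox genes between 23.7% and 29.9%, with ceh-20 and unc-62 at 8.73% and 10.2%.

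The top of the replicate lists held different numbers of Hox genes. Among the 1925 strongest regions of replicate 1 there were none at a Hox gene and 2 at cofactor genes, ceh-20 and unc-62, and thus 2 of 10 genes, against 17.1% of all genes. Among those of replicate 2 there were 3 Hox genes (ceh-13, nob-1 and php-3, from 2 distinct regions) and the same 2 cofactor genes, or 5 of 10 against 16.8%. The 2 cofactor genes were thus in the top of both replicate lists, as were 13.2% of all genes. The median best rank over Hox genes was 4494 in replicate 1 and 2069 in replicate 2. nob-1 and php-3 shared their best region in each replicate (rank 3881 in replicate 1 and 1612 in replicate 2), and it counted for both genes in these medians. Of the 28 distinct pooled summits at Hox genes, 15 (53.6%) had a summit within 100 bp in both replicates, and of the 23 at cofactor genes 11 did (47.8%). Over the whole pooled list the share was 39.4%. In any rank, replicate 1 and replicate 2 each had a region at 9 of the 10 genes, against 70.0% and 79.3% of all genes.

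**Figure D4:**
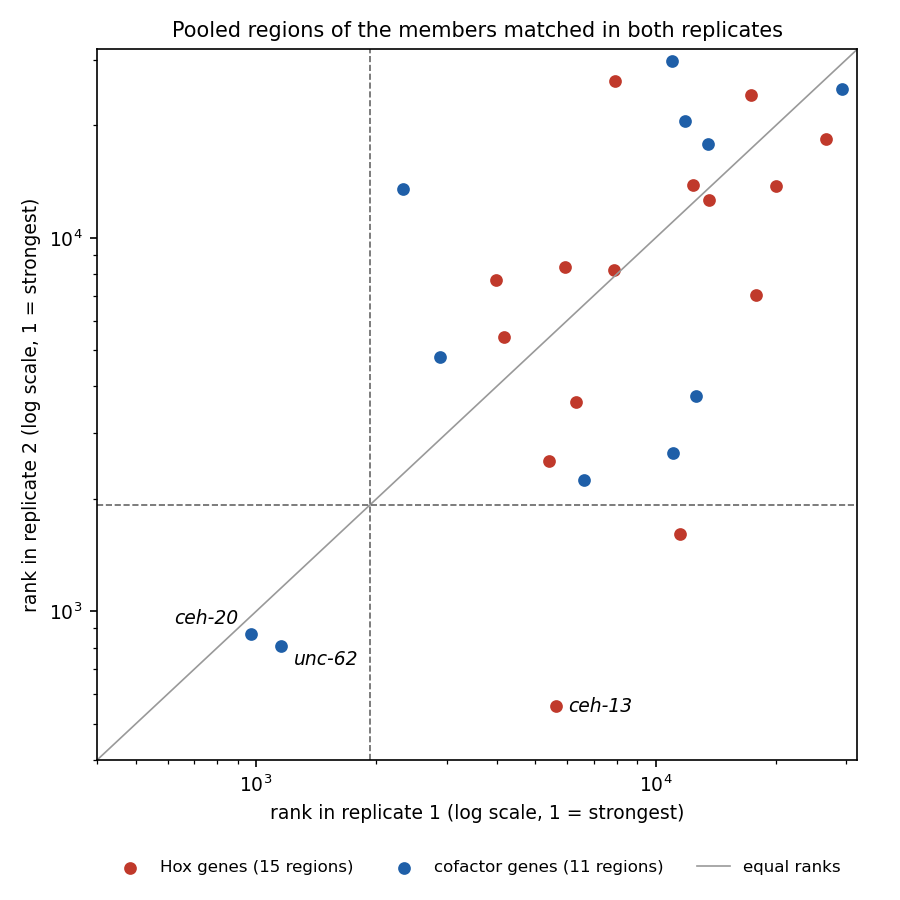
Rank in replicate 2 against rank in replicate 1, on log axes, for the 26 pooled regions of the members that had a summit within 100 bp in both lists (15 Hox, 11 cofactor). The optimal region of ceh-13 lies at 5635 and 559, and those of ceh-20 and unc-62 lie in the lower left, inside rank 1925 in both.

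A summit in an exon of any transcript was counted as in an exon, even where other transcripts had an intron. The same shares over all pooled summits were not computed. Of the 28 Hox summits 12 were intergenic, 13 intronic and 3 in an exon. Of the 23 cofactor summits 8 were intergenic, 7 intronic and 8 in an exon. All but 1 of those 8 were in unc-62, which has 15 annotated 5′ ends, and the other was in F31E3.2. The median G and C content of the 201-base windows was 41.8% at Hox genes and 43.8% at cofactor genes, against 41.3% at all pooled summits assigned to a gene. CAATTAA was found at 0 of 28 Hox summits and 1 of 23 cofactor summits, against 4.84% of all pooled summits. TAATTA was found at 4 Hox and 2 cofactor summits (14.3% and 8.70%), against 6.98%, but at none of either within 50 bp of the summit. TGATNNAT was found at 4 Hox and 6 cofactor summits (14.3% and 26.1%), against 10.5%, and TGACAG at 2 and 1 (7.14% and 4.35%), against 5.99%. GAGAGA was found at 9 Hox and 5 cofactor summits (32.1% and 21.7%), against 18.4%, and GGGCGG at 5 and 2 (17.9% and 8.70%), against 8.03%. These are small counts, and no test was run.

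Genes upstream and downstream of the Hox genes were looked up in the same way, and again no test was run. Their lists were chosen with earlier results of these data known, so the shares of these lists cannot show an excess. Of 14 genes known to act on Hox expression, 6 had an optimal region (42.9%, against 17.0% of all genes). The strongest was at lin-59, a trithorax-type gene (504 bp upstream of the 5′ end, signal 620, ranks 138 in replicate 1 and 241 in replicate 2). Next were sor-1 and sop-2, which help to silence Hox genes, with summits 617 bp (sor-1) and 590 bp (sop-2) upstream and signals of 466 and 434. The others were pop-1, the TCF factor of Wnt signalling (intron, signal 394, within 200 bp of a small RNA gene), egl-27, an MTA-type gene (intron, signal 292), and vab-7, the even-skipped relative (intron, signal 231). bar-1, the β-catenin gene, the Wnt gene egl-20, and lin-49 had no pooled region, and pal-1, mes-2, mes-3, mes-6 and lin-22 had pooled regions below the optimal list.

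Of 9 genes known to be controlled by Hox or PBC proteins, 4 had an optimal region (44.4%, against 17.0% of all genes). mls-2 had 5, the best with rank 41 and a signal of 1035 in an intron, and mls-2 is also the gene the tagged transgene encodes. The GATA factor genes egl-18 and elt-6 had intronic summits with signals of 431 and 235, and that of elt-6 had no match in replicate 2. The summit given to egl-1, a cell death gene, lay 4936 bp from its 5′ end and nearer to that of F23B12.1. vab-23, mig-13, cwn-1 and hlh-8 had pooled regions below the optimal list, the best at mig-13 with rank 5268, and spon-1 had no pooled region. The other TALE-class genes irx-1 and psa-3 likewise had 9 and 6 pooled regions and no optimal one. Of the 6 vitellogenin genes, which CEH-60 and UNC-62 control, none had an optimal region. Pooled regions were found at vit-1, vit-2, vit-3 and vit-5, the best at vit-2 with rank 3930, and vit-4 and vit-6 had none.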

How the data were processed

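MLS-2 ChIP-seq of 1 group of 2 embryo replicates was deposited as narrowPeak lists. The authors made replicate and pooled lists (peaks and background, the input to an irreproducible discovery rate, IDR, analysis) and a list of optimal IDR-thresholded peaks from the replicate and control alignments, per the deposited file descriptions. Peak caller, aligner, tool versions and IDR threshold: not given in the sources used here. The deposited signal value per region, whose scaling is not stated, was used for ranking within a list. The −log10 q of the deposited lists was at its maximum in 1772 of the 1925 optimal regions and was not used. Regions had a near-fixed width (470 bp in 98.0% of pooled regions), and no neighbouring pooled summits lay closer than 199 bp. The ce11 lists were annotated with Ensembl release 115 (WBcel235, the same build), and the ce10 lists were not used, since no coordinates were converted. Work was done in Python 3.11.15 with pandas 2.3.3. In the self-test on simulated summits, all 200 planted genes were recovered. The members, gene lists and motifs were chosen with earlier results of these data known, and the repeat measures after the sequences were seen. Text names the 10 genes, every other gene within reach of their optimal summits and the related genes of the companion lists. Labels name the replicates as biological. Read depth is unknown, so no interval was derived.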

Additional observations from a re-analysis of the deposited data

How the results depend on the processing

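The count of genes with an optimal region was 3 of 10 and stayed between 2 and 3 for windows of 1, 2 and 10 kb, without gene bodies, with each summit given to the nearest gene and without summits near small RNA genes. In the strongest 962 optimal regions it was 1, with 0 Hox genes and 1 cofactor gene. With 1 replicate's strongest 1925 regions in place of the optimal list the counts ran from 2 to 5 genes, 0 to 3 Hox genes (0 to 2 distinct summits) and 2 to 2 cofactor genes. At 1 kb and 2 kb the Hox count was 0, also as distinct summits, and at 10 kb the cofactor genes had 4 distinct summits. Pooled summits per kb at Hox genes were 0.545 at 1 kb, 0.577 at 2 kb and 0.358 with summits within 250 bp counted once. At cofactor genes they were 0.532, 0.497 and 0.382, 0.390 at 10 kb and 0.154 without unc-62 (the last and the 250 bp setting chosen after seeing the data). With 1 replicate's list alone the values ran from 0.424 to 0.505 at Hox genes and from 0.440 to 0.497 at cofactor genes. The median best rank ran from 1612 to 3982 with 1 replicate's list. With 962 strongest regions, 0 of the 10 genes remained in replicate 1 and 3 in replicate 2. Of 18 pairs of optimal summit and motif 3 matched, and 1 did with 50 bp on each side. Of 40 alternatives for the rank of a single gene, 8 moved by more than the standard deviation of the gene's 2 replicate ranks. Those replicate ranks were also among the alternatives, and genes whose replicates differ move less easily, so the count does not measure stability. At 1 kb ceh-13 went from 1815 to 4618 and was not counted. With replicate 1 alone ceh-20 went from 856 to 969 and was counted. A ranking by the eighth column was not run, since it held 1 value. No paired analysis was possible because there was 1 group. The cause of these changes was not tested. The unknown depth and the lack of a control library here limit what weak regions can show.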
